A study of Macaca mulatta with 12 samples.

Results

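The miR-29 family is a group of small regulatory RNAs that share the bases by which a microRNA (miRNA) finds its target messenger RNAs. A miRNA is cut from a hairpin precursor, the pre-miRNA, whose 5′ and 3′ arms can each give a mature miRNA (5p and 3p). In mammals the family is known for repressing genes of the extracellular matrix, among them fibrillar collagens and elastin, and the DNA methyltransferases DNMT3A and DNMT3B, and it is abundant in muscle and in the mature nervous system. The 4 pre-miRNAs mml-mir-29a, mml-mir-29b-1, mml-mir-29b-2 and mml-mir-29c were taken from the supplementary list of rhesus macaque (Macaca mulatta) pre-miRNAs, of which 832 had a sequence that could be used here. They hold 7 of the 1219 distinct mature sequences of that list, since mml-mir-29b-1 and mml-mir-29b-2 give the same 3p sequence, called miR-29b-3p below.

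Small RNA libraries from 8 tissues of untreated wild-type animals aged 36 months gave 12 profiles. There were 2 profiles each of kidney, muscle and the small and large intestine. Liver, lung, spinal cord and occipital lobe of the brain had 1 each. The tissues came from 2 animals, and the sources used here do not say which profile came from which animal, so the spread within a tissue may be between animals or between samples of the same animal. Levels are given as reads per 10000000 valid reads (RPTM). The profiles held 22118095 to 25579064 valid reads, so that 1 read was worth 0.391 to 0.452 RPTM.

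The gene table of RefSeq (assembly T2T-MMU8v2.0) places the 4 genes in 2 clusters. MIR29A and MIR29B-1 are next to each other inside the gene LOC708686, between the coding genes TSGA13 and MKLN1. MIR29C and MIR29B-2 are next to each other between CD46 and CD34. Positions in the build used by the study were not analysed here.

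The precursors are shown whole, since the comparisons turn on which bases tell the members apart. Capitals mark the mature 5p and 3p sequences of the list, 5′ to 3′.
mml-mir-29a: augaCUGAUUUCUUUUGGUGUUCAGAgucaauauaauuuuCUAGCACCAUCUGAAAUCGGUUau
mml-mir-29b-1: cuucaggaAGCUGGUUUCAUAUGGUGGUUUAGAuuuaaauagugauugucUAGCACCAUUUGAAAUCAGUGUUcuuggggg
mml-mir-29b-2: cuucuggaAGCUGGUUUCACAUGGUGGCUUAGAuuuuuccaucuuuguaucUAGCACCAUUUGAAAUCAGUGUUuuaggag
mml-mir-29c: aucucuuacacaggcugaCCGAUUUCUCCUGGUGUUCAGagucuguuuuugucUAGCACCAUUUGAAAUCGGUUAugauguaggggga

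The most common 3p read of each member over the 12 profiles is shown next, with the seed (bases 2 to 8, which pair with the target) in capitals. The seed was the same in all 3 reads.
miR-29a-3p: uAGCACCAucugaaaucgguu
miR-29b-3p: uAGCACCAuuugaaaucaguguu
miR-29c-3p: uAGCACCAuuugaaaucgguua

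Positions are counted from the U that begins these reads. Over the first 22 bases, miR-29a and miR-29c differed by 1 substitution, C10U. The change from miR-29c to miR-29b took 3 substitutions, G18A, U21G and A22U. A read shorter than 18 bases from that U cannot tell miR-29b from miR-29c. The 5p arms differ among all 4 precursors. From mml-mir-29b-1 to mml-mir-29b-2 the 5p sequence changes by U12C and U20C, so 5p reads can tell those precursors apart. Their 3p reads can do so only where they reach position 24, where 30 of 4184 miR-29b reads ended without added bases.

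miR-29a-3p was the most abundant member in every profile, miR-29c-3p came next and miR-29b-3p was last. Of 111746 reads of the 3p arms with at most 2 added bases at the 3′ end, 76823 (68.7%, 95% Wilson interval 68.5 to 69.0%) were miR-29a, 30739 (27.5%) were miR-29c and 4184 (3.74%) were miR-29b. Between profiles the share of miR-29a varied from 57.8% of the family in the first kidney profile to 77.6% in lung. The share of miR-29b varied from 2.91% in occipital lobe to 5.43% in spinal cord. Intervals and floors cover counting error only. Those over all profiles leave out the differences between profiles, and copies made by PCR were not marked and could not be removed.

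For the levels, a read was counted when it matched the hairpin exactly and began and ended within 2 bases of the listed mature ends. miR-29a-3p stood at 3537 and 3279 RPTM in muscle, 3066 in spinal cord, 3025 in lung and 2877 in occipital lobe. It was 1000.3 RPTM in liver, 882 and 548 in kidney, 771 and 715 in small intestine, and 668 and 726 in large intestine. The 12 profiles thus fell into 5 between 2877 and 3537 RPTM and 7 between 548 and 1000.3 RPTM. The means were 3408 ± 182 (SD, n = 2) in muscle, 743 ± 39.6 in small intestine, 715 ± 236 in kidney and 697 ± 40.9 in large intestine, and the last 3 tissues did not differ beyond the spread within kidney.

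miR-29c-3p was highest in the nervous system, at 1709 RPTM in occipital lobe and 1302 in spinal cord. Muscle followed with 909 and 778 RPTM, and lung had 600. Kidney had 513 and 262 RPTM, liver 369, small intestine 287 and 169, and large intestine 173 and 169. Kidney overlapped liver and small intestine, and small intestine overlapped large intestine, while liver lay above both small intestine profiles. The order of the highest tissues depended on the scaling: after TMM scaling muscle had 967 and 806, occipital lobe 755 and spinal cord 524. The mean was 843 ± 92.5 RPTM (SD, n = 2) in muscle and 171 ± 2.81 in large intestine.

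miR-29b-3p was the scarce member, at 52 to 575 reads a profile. It was highest in spinal cord at 241 RPTM, against 131 in occipital lobe, 175 and 106 in muscle and 101 in lung. Kidney had 50.4 and 30.2 RPTM, liver 36.7, small intestine 25.4 and 30.4, and large intestine 23.5 and 29.3. The muscle profiles lay on either side of occipital lobe, so their order is not settled by 2 profiles. After TMM scaling muscle was highest, at 186 and 110, against 96.8 in spinal cord and 57.8 in occipital lobe.

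**Figure D1:**
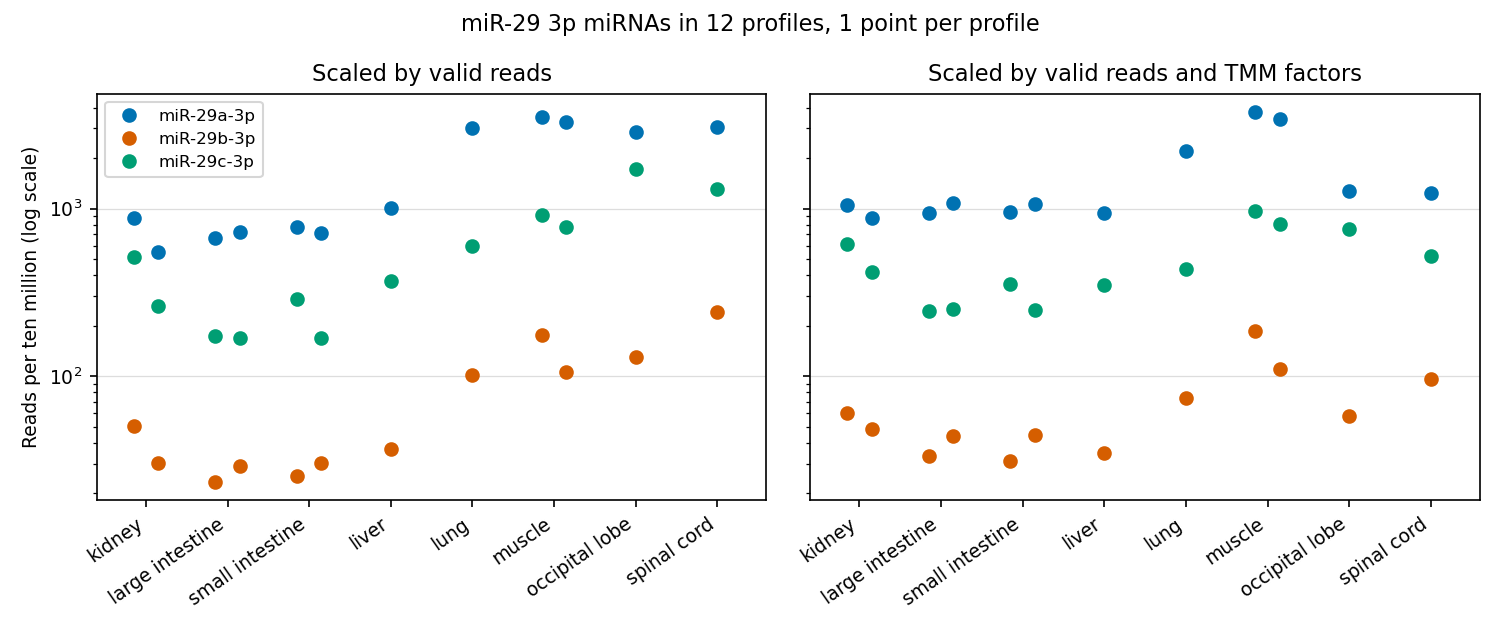
Levels of the 3 miR-29 3p miRNAs by tissue, 1 point per profile, in RPTM on a log scale, after scaling by valid reads (left) and by valid reads and TMM factors (right). On the left muscle, lung, occipital lobe and spinal cord hold the 5 highest miR-29a-3p values, and on the right occipital lobe and spinal cord come down to 1271 and 1233, beside kidney, intestine and liver. For miR-29b-3p and miR-29c-3p too, muscle is highest on the right, and a neural profile on the left.

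The markers of muscle, liver and neurons were highest in the profiles so labelled. The summed muscle markers (miR-1, miR-133a and miR-206) were at 130760 and 145354 RPTM in muscle and at 47.2 to 917 elsewhere. The liver miRNA miR-122 was at 7320 RPTM in liver and at most 4.37 elsewhere. The neuronal miR-124a and miR-9 summed to 394379 RPTM in occipital lobe and 264597 in spinal cord, and to at most 992 elsewhere. The intestinal markers miR-192, miR-194 and miR-215 summed to 2063772 and 1645037 RPTM in small intestine, but liver, at 1214181, lay above large intestine, at 1002390 and 452851. The TMM factors, which scale each library by the bulk of its miRNAs, were 2.26 and 2.49 in these 2 neural profiles and 0.623 to 1.37 in the others.

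Whether a tissue differed from the rest was tested with edgeR's quasi-likelihood test with TMM factors over the 371 mature miRNAs whose mean reached 5 RPTM and whose SD reached 1. Of the 7 miR-29 mature sequences, 4 passed that filter: the 3p arms and miR-29c-5p. Each of 5 groups of 2 profiles, with occipital lobe and spinal cord joined as a neural group, was compared with the mean of the other 6 groups. A call is a Benjamini-Hochberg adjusted p under 0.05.

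In muscle, all 4 tested members rose. miR-29a-3p was 1.61 ± 0.21 (log2 fold change ± SE) above the mean of the other groups (edgeR adjusted p = 0.000202), and each muscle profile lay above every other profile. miR-29b-3p was 1.56 ± 0.34 above it (edgeR adjusted p = 0.00492). miR-29c-3p was 1.17 ± 0.27 above it (edgeR adjusted p = 0.0066). miR-29c-5p was 2.02 ± 0.67 above it (edgeR adjusted p = 0.036), a call that held under 10 of 19 alternatives. Over all miRNAs tested, 95 of 371 (25.6%) were higher and 47 (12.7%) lower in muscle by the same rule, with a median log2 fold change of -0.11. Without the first muscle profile the changes of miR-29b-3p and miR-29c-3p were 1.13 and 1.03 (edgeR adjusted p = 0.108 and 0.0724). The lone muscle profile is then assumed to vary as the other groups do. The call of miR-29a-3p passed under every alternative tried.

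The markers of other cell types were not all higher or lower in both muscle profiles. Of the 3 miRNAs listed for blood, miR-486, which muscle itself also makes, was at 449799 and 815651 RPTM in muscle and at 9347 to 276764 elsewhere, and made up nearly all of the list's sum of 450112 and 820858 in muscle and 9396 to 277033 elsewhere. The red cell miRNA miR-451 was at 295 and 5006 RPTM in muscle and at 46.1 to 1362 elsewhere, and miR-144 at 18.4 and 200.4 against 3.16 to 242. The first muscle profile was thus within the range of the other tissues for these 2. The stromal pair miR-199a and miR-214 summed to 18691 and 6418 RPTM in muscle against 384 to 6768 elsewhere, so the second muscle profile was within that range. The leukocyte markers miR-142, miR-150 and miR-223 summed to 1521 and 2425 RPTM in muscle, within the 188 to 7851 found elsewhere. The part of these cell types in the miR-29 levels was not tested. In whole tissue, fewer cells of a type and less RNA per cell cannot be told apart.

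**Figure D2:**
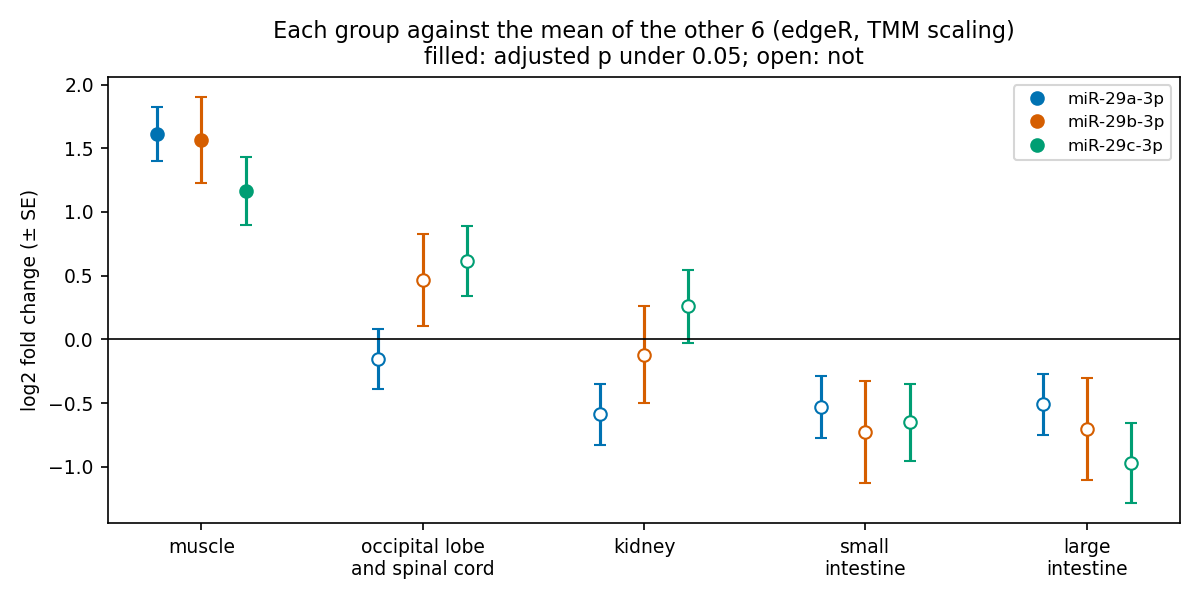
Log2 fold change (± SE) of the 3 miR-29 3p miRNAs in each group of 2 profiles against the mean of the other 6 groups, from edgeR with TMM factors. Filled points have an adjusted p under 0.05 and open points do not; the 3 muscle points, at 1.17 to 1.61, are filled.

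In the neural group none of the 4 tested members passed with TMM factors, and 0 had an unadjusted edgeR p under 0.05 or passed with DESeq2. miR-29c-3p was 0.62 ± 0.28 above the mean of the other groups on the log2 scale (edgeR adjusted p = 0.0716), miR-29b-3p 0.47 ± 0.36 above it (edgeR adjusted p = 0.269) and miR-29a-3p -0.16 ± 0.23 from it (edgeR adjusted p = 0.569). For miR-29c-3p, 4 of 18 alternatives gave a call: valid reads alone, tails counted (0.85, edgeR adjusted p = 0.0279), and TMM factors without lung (0.89, edgeR adjusted p = 0.0316) or without spinal cord (0.99, edgeR adjusted p = 0.0446). Over all miRNAs, 150 of 371 (40.4%) were called higher and 102 (27.5%) lower in the neural group. The direction of miR-29a-3p turned with the scaling. With valid reads alone as the library size it was 1.25 ± 0.24 above the mean (edgeR adjusted p = 0.000816) and all 4 members were called higher, as were 232 of 371 miRNAs (62.5%). That scaling moved the median log2 fold change of all miRNAs from 0.59 to 1.97. Relative to that median, miR-29a-3p was at -0.74 with TMM factors and -0.72 with valid reads, and miR-29c-3p was at 0.03 with each.

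In kidney the members did not share a direction. miR-29a-3p was -0.59 ± 0.24 from the mean of the other groups on the log2 scale (edgeR adjusted p = 0.126), miR-29b-3p -0.12 ± 0.38 (edgeR adjusted p = 0.882) and miR-29c-3p 0.26 ± 0.28 (edgeR adjusted p = 0.601). None was called by edgeR or DESeq2 and 1, miR-29a-3p, had an unadjusted edgeR p under 0.05, against 16.7% of all miRNAs called higher and 4.04% called lower. With valid reads alone miR-29a-3p was called lower there, at -1.15 ± 0.28 (edgeR adjusted p = 0.019), as were 11.3% of all miRNAs, and miR-29c-3p turned to -0.28.

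In the intestine all fitted changes were below 0. None was called by edgeR or DESeq2, and 1 member had an unadjusted edgeR p under 0.05 in each tissue, miR-29c-3p in large and miR-29c-5p in small intestine. In large intestine miR-29c-3p was at -0.97 ± 0.31 (edgeR adjusted p = 0.0622), miR-29b-3p at -0.70 ± 0.40 (edgeR adjusted p = 0.276) and miR-29a-3p at -0.51 ± 0.24 (edgeR adjusted p = 0.198). In small intestine miR-29b-3p was at -0.73 ± 0.40 (edgeR adjusted p = 0.226), miR-29c-3p at -0.65 ± 0.30 (edgeR adjusted p = 0.158) and miR-29a-3p at -0.53 ± 0.24 (edgeR adjusted p = 0.147). Over all miRNAs, 9.16% were called higher and 5.39% lower in large intestine, and 12.1% and 9.97% in small intestine. With valid reads alone, 3 of the 4 members were called lower in each, beside 21.3% of all miRNAs in large intestine and 24.5% in small intestine.

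The balance between members does not depend on the scaling of the libraries. There were 1.68 reads of miR-29a-3p for each read of miR-29c-3p in occipital lobe, 2.35 in spinal cord, and 1.72 and 2.10 in kidney. The ratio was 2.71 in liver and 2.69 and 4.24 in small intestine. It was 3.86 and 4.29 in large intestine, 3.89 and 4.22 in muscle and 5.04 in lung. Kidney and the neural tissues thus had the lowest ratios, without overlap with the other 8 profiles, and lung had the highest.

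Whether tissues differed in a ratio by more than profiles of the same tissue was tested by an exact permutation test (one-sided), which draws 4 pairs from the 12 profiles in all 51975 ways and asks how often the mean gap within pairs is as small as that within the 4 tissues. The gap in log2(miR-29a-3p/miR-29c-3p) was 0.30 within and 0.67 between tissues (exact permutation p = 0.0533, adjusted p = 0.338 over 19 measures of the family). The small intestine profiles, which lay 0.66 apart, made the largest gap within a tissue. No difference in this ratio between tissues passed the threshold.

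The ratio of miR-29a-3p to miR-29b-3p ran from 12.7 in spinal cord to 31.0 in the second muscle profile. It was 17.5 and 18.2 in kidney, 21.997 in occipital lobe, 20.2 in the first muscle profile, 28.4 and 24.7 in large intestine, 30.4 and 23.5 in small intestine, 27.3 in liver and 29.95 in lung. Its gap on the log2 scale was 0.31 within and 0.46 between tissues (exact permutation p = 0.166, adjusted p = 0.361). For miR-29b-3p to miR-29c-3p the gaps were 0.53 and 0.55 (exact permutation p = 0.466, adjusted p = 0.511), so profiles of the same tissue lay about as far apart as those of different tissues.

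**Figure D3:**
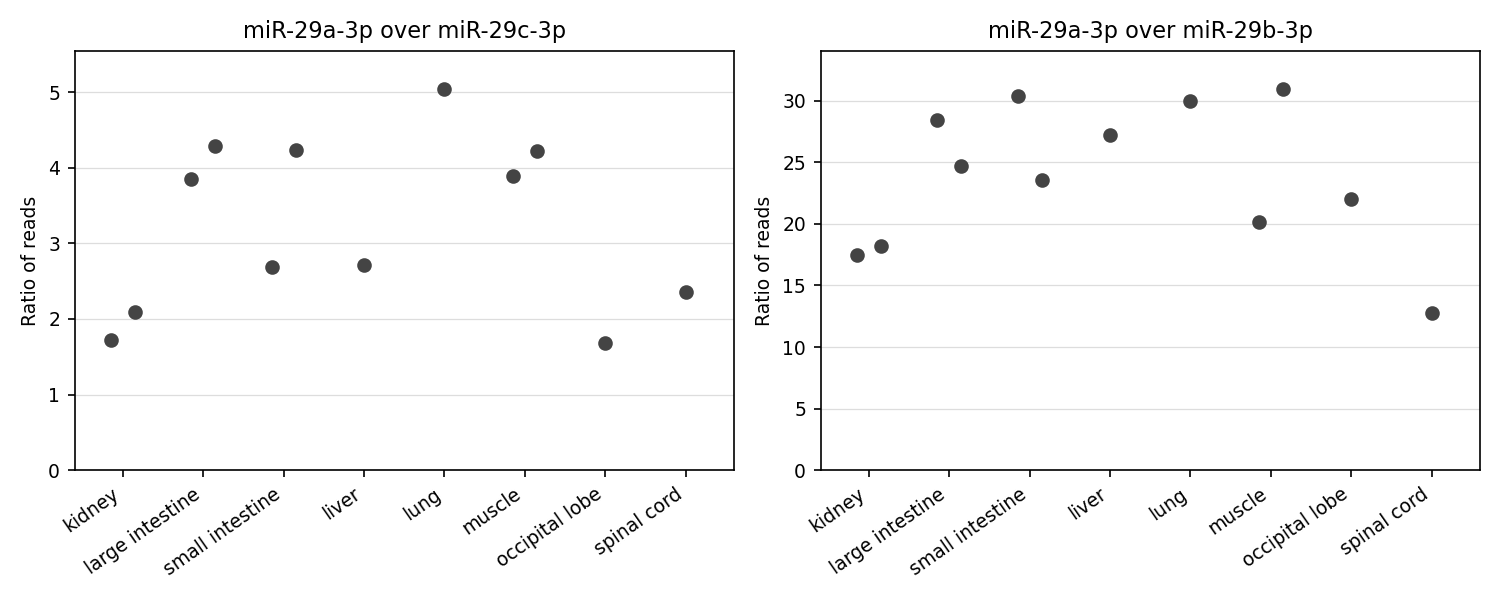
Ratio of miR-29a-3p to miR-29c-3p reads (left) and to miR-29b-3p reads (right) by tissue, 1 point per profile, on linear axes from 0. On the left the 2 kidney profiles and the 2 neural tissues are lowest, at 1.68 to 2.35, and lung is highest at 5.04; on the right spinal cord is lowest at 12.7.

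These ratios also depended on how reads were assigned. The list gives miR-29a-3p with a C before the shared U, as the sequence cuagcaccaucugaaaucgguu, whereas most of its reads began at the U. Counting only reads identical to the listed sequences took the median log2 ratio of miR-29a-3p to miR-29c-3p from 1.69 to -1.58, and that to miR-29b-3p from 4.59 to 0.88. Counting exact reads with any 3′ end left the first at 1.69 and took the second to 4.10. That rule lets in the short miR-29b reads that end at position 20.

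The 5p arms were rare in every tissue. miR-29c-5p had 217 reads in the 12 profiles against 17123 of miR-29c-3p. It had 48 reads in occipital lobe, 38 and 28 in muscle, 34 in spinal cord, 30 in liver, 14 in lung and 12 and 3 in kidney. Large intestine had 1 and 7, and small intestine 2 and 0 reads, where a count of 0 allows up to 3 reads, or 1.27 RPTM. The fitted change in small intestine was -3.40 ± 1.14 on the log2 scale (edgeR adjusted p = 0.0593), and a fitted value of so few reads depends on the prior count. miR-29a-5p had 66 reads in all, at 0 to 11 a profile, against 49699 of miR-29a-3p.

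Which miR-29b precursor gave more 5p reads depended on the window. Within 2 bases of the listed ends, the 5p arm of mml-mir-29b-2, the neighbour of mml-mir-29c, had 56 reads, of which 27 were from spinal cord, 11 from liver, 6 and 1 from kidney, 5 from occipital lobe, 1 and 3 from large intestine and 2 from lung. mml-mir-29b-1 gave 9 reads, with 3 in the first muscle profile, 2 each in the first small intestine profile and spinal cord, and 1 each in liver and occipital lobe. With ends within 1 base the counts were 5 for mml-mir-29b-2 and 8 for mml-mir-29b-1, so the share of mml-mir-29b-2 went from 86.2% (95% Wilson interval 75.7 to 92.5%) to 38.5% (17.7 to 64.5%). With a pseudocount of 1 read, the gap in the log2 ratio of mml-mir-29b-1 to mml-mir-29b-2 was 1.60 within and 1.95 between tissues. It did not pass the test (exact permutation p = 0.295, adjusted p = 0.477). The log2 ratio of 5p to 3p reads had a median of -9.20 for miR-29a, -4.97 for miR-29b and -6.50 for miR-29c, and none of them passed the test across tissues (exact permutation p = 0.335, 0.171 and 0.163, adjusted p = 0.477, 0.361 and 0.361).

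The members also differed in where their 3p reads began. Over all profiles, 90.8% of miR-29a reads, 81.0% of miR-29b reads and 98.2% of miR-29c reads started at the shared U. A start 1 base earlier, at the C that all 4 hairpins have there, was found in 9.18% of miR-29a, 18.9% of miR-29b and 0.21% of miR-29c reads. Such a start moves the seed by 1 base, as the capitals show in a miR-29a read of each kind.
miR-29a-3p from the U: uAGCACCAucugaaaucgguu
miR-29a-3p from the C: cUAGCACCaucugaaaucgguu
In miR-29b this earlier start took 31.9 and 30.9% of reads in kidney and 28.1% in occipital lobe, against 15.4% in spinal cord and 12.2 and 18.5% in muscle. Liver lay between at 24.4%, and the small intestine profiles were apart at 22.5 and 12.1%. Large intestine had 16.0 and 12.4% and lung 14.8%. The mean gap in the share of miR-29b reads at the U was 5.41 percentage points within and 8.78 between tissues. It did not pass the test across tissues (exact permutation p = 0.143, adjusted p = 0.361).

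**Figure D4:**
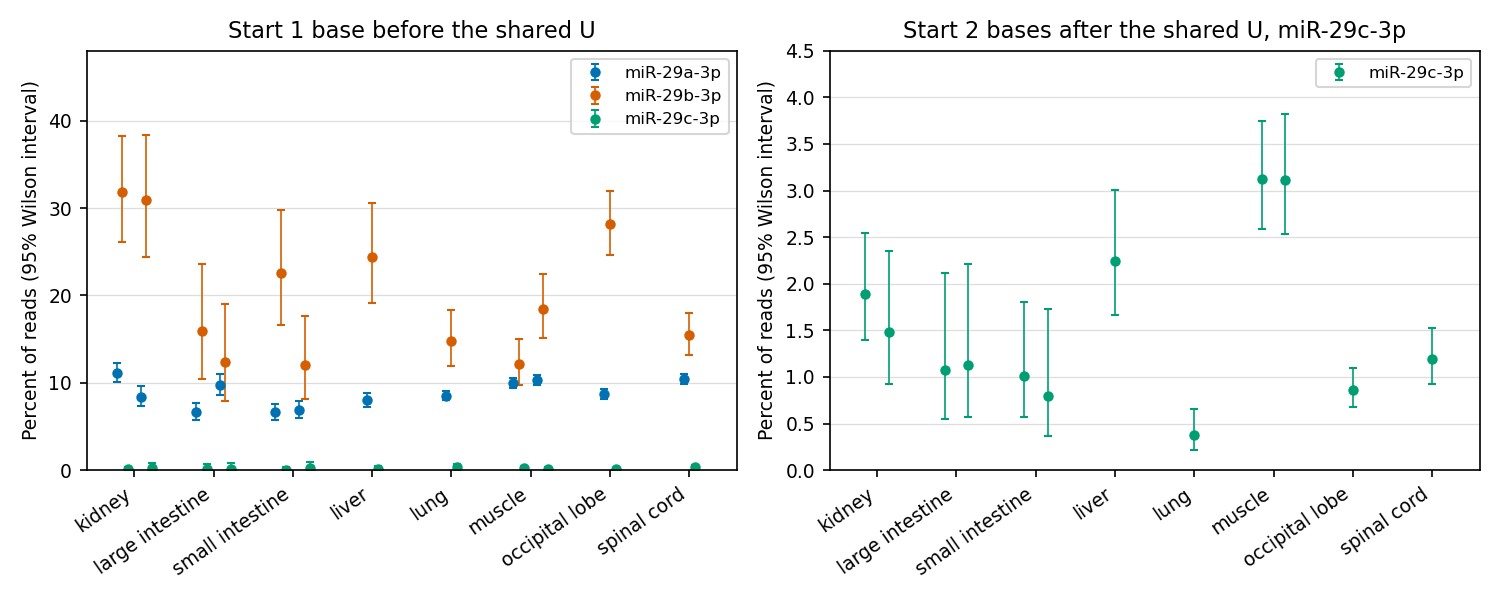
Percent of a member's 3p reads that start 1 base before the shared U (left) and, for miR-29c-3p, 2 bases after it (right), by tissue, 1 point per profile with its 95% Wilson interval. On the left miR-29b-3p lies above miR-29a-3p in all 12 profiles and miR-29c-3p is near 0; on the right both muscle profiles stand at 3.12% and lung is lowest at 0.377%.

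Of the 19 measures tested across tissues, only the share of miR-29c reads that start at the U passed. It ran from 96.6 and 96.7% in muscle to 99.2% in lung, with a mean gap of 0.14 percentage points within and 1.03 between tissues (exact permutation p = 0.00025, adjusted p = 0.00475). The remainder was mostly reads that start 2 bases later, 470 in all. They made up 3.12% of miR-29c reads in each muscle profile, 2.24% in liver, 1.89 and 1.48% in kidney, 1.19% in spinal cord, 1.08 and 1.13% in large intestine, 1.01 and 0.796% in small intestine, 0.863% in occipital lobe and 0.377% in lung. The most common of them, with 229 reads, follows the hairpin to position 24, and its bases 2 to 8 are no longer those of the family.
miR-29c-3p from 2 bases later: gCACCAUUugaaaucgguuaug
The muscle profiles reached the same share through different reads. In the first, 80 of 109 such reads followed the hairpin to their end and 20 had 2 added bases, and in the second the numbers were 41 and 46 of 88. With tails of at most 1 base the shares were 2.70 and 1.61% in muscle, and the gap between tissues over that within fell from 7.60 to 1.17 (adjusted p = 0.486).

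At the 3′ end each member had its own pattern. Reads of miR-29a that followed the hairpin ended most often at position 21 (29.5% of its reads), then at 22 (19.8%) and 20 (11.7%). Those of miR-29c ended at 22 (26.0%) and 21 (20.4%). Those of miR-29b ended at 23 (41.2%), with a second group at 20 (15.1%) that lies outside the counting window for the levels. The share of the most common end varied from 23.2 to 38.4% between profiles for miR-29a, 25.2 to 61.4% for miR-29b and 19.2 to 36.7% for miR-29c, and none passed the test across tissues (exact permutation p = 0.214, 0.141 and 0.376, adjusted p = 0.407, 0.361 and 0.477).

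Bases that the hairpin does not encode followed the 3p sequence in many reads. Of the members, miR-29c carried the most A tails, 1 or 2 added A bases, in 22.5% of its reads, from 16.8% in the lowest profile to 32.5% in lung. miR-29a had 9.67% (6.93 to 14.05%) and miR-29b 9.27% (3.78 to 17.6%). The main such read of miR-29c, with 3979 reads, had a single A after position 22, marked by the capital.
miR-29c-3p with an added A: uagcaccauuugaaaucgguuaA
A second group of miR-29c reads stopped at position 19 and went on with A in place of the encoded U. There were 1969 with 1 added A and 1014 with 3. Tails of 3 bases were left out of the shares given here.

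Over the 268 mature miRNAs with at least 1000 reads, counted by the window used for the levels, the median share of A tails was 3.61% (quartiles 1.21 and 9.23%). By that count miR-29c-3p had 17.7%, and 31 of the 268 had more. miR-29a-3p had 9.22%, with 67 above it, and miR-29b-3p had 6.75%, with 92 above it. G tails set miR-29a-3p apart more, at 9.26% against a median of 1.40%, with 3 miRNAs above it, and miR-29c-3p had 6.39%, with 7 above it. The main such read of miR-29a, with 4171 reads, had a G after position 21. The 3′ adapter begins with UG, so a molecule that ended at position 20 and kept 2 adapter bases would read the same. In a single read the 2 cannot be told apart. Position 23 of miR-29a is also a U, so 2 adapter bases kept after position 22 would read as a G added after position 23. There were 15196 miR-29a reads that ended at 22 without added bases, and 105 with any added bases after 23. The part of adapter bases in the G tails was not tested.

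U tails were rare, in 2.10% of miR-29a, 1.48% of miR-29b and 1.76% of miR-29c reads. A U that follows position 19, 20 or 22 of miR-29a or miR-29c is encoded and does not count as added. An A that follows position 21 of either is encoded too, so it is not among the A tails. C tails were found in 10.5% of miR-29a, 13.7% of miR-29b and 8.44% of miR-29c reads. None of the A or U tail shares passed the test across tissues. The nearest were the U tails of miR-29a (exact permutation p = 0.0366, adjusted p = 0.338) and the A tails of miR-29b (exact permutation p = 0.0749, adjusted p = 0.356).

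**Figure D5:**
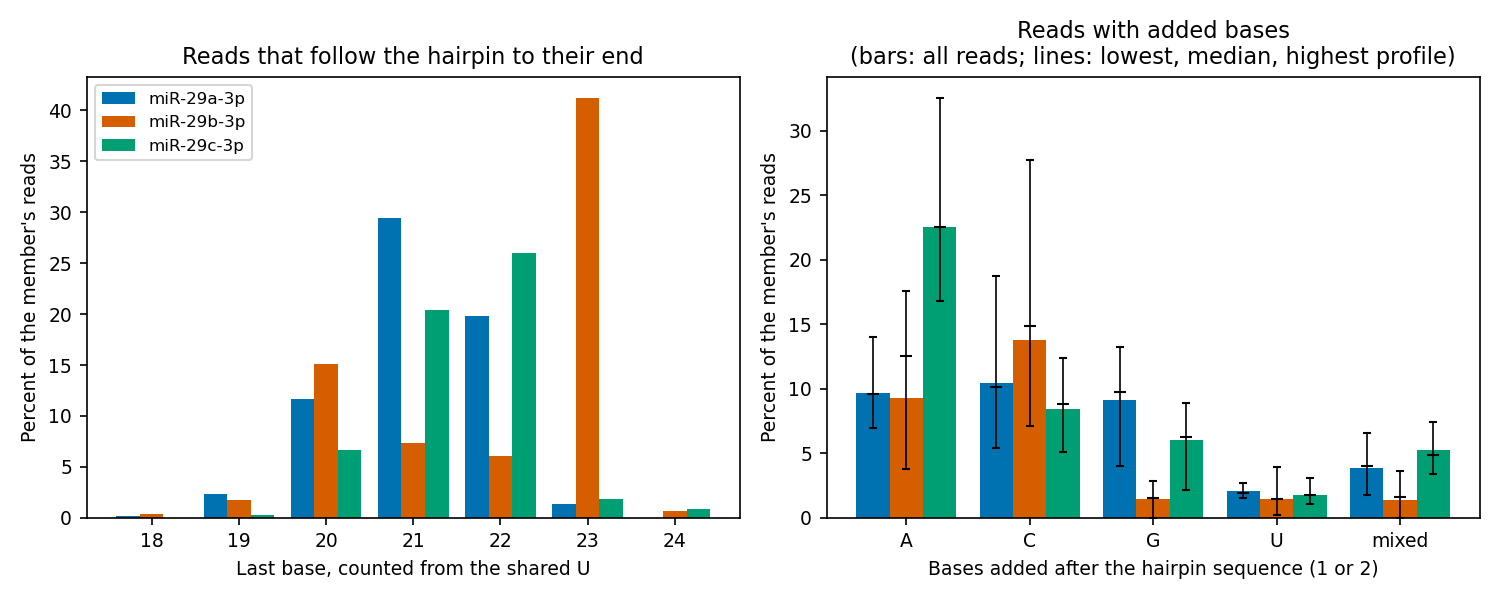
Where the 3p reads of each member end (left, percent of its reads that follow the hairpin to that position, over all profiles) and which bases were added after the hairpin sequence (right, bars over all profiles, lines from the lowest to the highest profile with the median). miR-29a-3p peaks at position 21, miR-29c-3p at 22 and miR-29b-3p at 23, and A tails are highest in miR-29c-3p at 22.5%.

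Position 10 alone separates miR-29a from miR-29c, so reads changed there could move between members. Of 111150 reads that matched on both sides of it, 95 (0.0855%) had A or G, which neither member encodes. A change between C and U there, which would move a read, cannot be seen in this way. At the other C bases of miR-29a, C-to-U changes were found in 0.0306% (C17U) to 0.454% (C7U) of reads. A-to-I editing reads as an A-to-G change in sequencing. Over all profiles together, such a change was found at most in 0.318% of the miR-29a reads that start at the U. It was found at most in 0.344% of miR-29b reads and 0.275% of miR-29c reads, each time as A5G in the seed. Single profiles reached higher shares, also at other bases. Examples are 0.611% for A8G of miR-29a in the second large intestine profile and 2.10% for A2G of the scarce miR-29b in liver. A5G of miR-29c reached 0.932% in the second small intestine profile.

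The 3 members followed each other over the 12 profiles. Pearson's r of log2(RPTM + 1) was 0.95 between miR-29a-3p and miR-29b-3p, 0.92 between miR-29b-3p and miR-29c-3p and 0.88 between miR-29a-3p and miR-29c-3p. After TMM scaling these were 0.87, 0.81 and 0.70. The profiles share libraries and several come from the same tissue, so these are descriptions.

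Among the 367 other miRNAs past the filter, those whose pattern was most like miR-29a-3p were miR-16-5p (r = 0.95), miR-1306-5p (0.94) and miR-186-5p (0.94), against a median r of 0.43 over all 367. Of these, miR-1306-5p was scarce, at 0 to 21.9 RPTM with a median of 3.05, so its r rests on few reads. For miR-29b-3p they were miR-125b-1-3p (0.94), miR-26a-5p (0.92) and miR-101-3p (0.92), against a median of 0.52. For miR-29c-3p they were let-7d-5p (0.98), miR-26a-5p (0.95) and miR-101-3p (0.95), against a median of 0.57. With TMM-scaled values 2 of these 9 choices remained, and with a profile left out 4 to 8 remained. The choices thus depended on the scaling and on single profiles.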

How the data were processed

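Each profile was deposited as a table of unique small RNA sequences with their read counts, which the authors made from TruSeq libraries by keeping reads with scores of at least 30 in the first 25 nucleotides, removing the 3′ adapter and keeping reads of 18 nucleotides or longer. Each file was taken as counts. No aligner was used for these files. Reads were matched exactly to the listed pre-miRNAs, and sequences listed under several names were counted once.

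Levels were fitted with edgeR 4.0.16 (quasi-likelihood test) in R 4.3.3, with DESeq2 1.42.0 as an alternative; ratios, starts and ends were computed in Python 3.11.15. In simulated counts for the muscle comparison, 200 of 200 miRNAs changed by 8-fold were recovered among 371, with 2 false calls. The other groups did not differ from each other in that simulation, and smaller changes, such as those of miR-29, were not simulated. All members were described whatever they showed, and for each 3p member the 3 other miRNAs with the highest r were named. The members and lists were chosen with earlier results of these data known. The deviations of same-numbered profiles from their tissue means correlated at -0.14 to 0.15 over 6 pairs of tissues. Such values would also arise if the numbers marked animals that differed little, so they cannot show whether the profiles are paired. Alternatives were other scalings, filters and read assignments, and each profile left out in turn. Reads of the family that could not be read as hairpin sequence with a tail of at most 3 bases (3.49 to 4.47% of each profile) were left out of the shares.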

Additional observations from a re-analysis of the deposited data

Results flagged for a closer look

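Reads with an internal base change were not part of the levels or ratios. Changes within the first 18 bases were listed, leaving out those that lead to another member. More than 3 reads, the limit that a count of 0 allows, were found for 43 of 47 changes in miR-29a-3p. The numbers were 11 of 28 in miR-29b-3p and 36 of 44 in miR-29c-3p. A member with more reads passes this limit more easily, and the limit does not measure sequencing error. Among the changes, the seed change A5G was at 0.318, 0.344 and 0.275% in miR-29a-3p, miR-29b-3p and miR-29c-3p. The most frequent in each member was A14C, chosen here after its values were seen. A14C, counted from the shared U, was found in 517 of 62636 miR-29a-3p reads (0.825%, 95% Wilson interval 0.758 to 0.899%), 219 of 27401 miR-29c-3p reads (0.799%, 0.700 to 0.912%) and 25 of 3215 miR-29b-3p reads (0.778%, 0.527 to 1.15%), where 3 reads would be 0.00479, 0.0109 and 0.0933%. The intervals of the 3 members overlap. In miR-29a-3p the share ran from 0.459 to 1.44% between profiles and in miR-29c-3p from 0.496 to 1.39%, and the second small intestine profile was highest in each. There were no control samples for such changes, and their source was not tested.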

How the results depend on the processing

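Of 20 pairs of a member and a group, 4 were called with TMM factors and 14 (7 higher, 7 lower) with valid reads alone, 2 without the abundance filter, and 1 to 5 with a profile left out. miR-29a-3p in muscle passed under all 20 alternatives (1.32 to 1.98). miR-29c-3p in muscle was at 0.95 without the filter (edgeR adjusted p = 0.0692), 18 of its 20 alternatives passed, and leaving out a profile gave 0.94 to 1.29, and 1.13 to 1.90 for miR-29b-3p. The lowest of these for miR-29b-3p and a call lost for miR-29c-3p came without the first muscle profile. With the replicate block on the 8 numbered profiles, 4 pairs were called, as without the block on those profiles; the same numbers are not stated to mark animals.

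Uncalled changes that turned sign were miR-29a-3p in the neural group (1.25 with valid reads, 0.11 with tails counted, and -0.27 to 0.22 with a profile left out, above 0 without lung or spinal cord), miR-29c-3p in kidney (-0.28 with valid reads, and -0.041 and 0.51 without the first and the second kidney profile), miR-29b-3p in kidney (-0.29 to 0.028 with a profile left out, above 0 without the second kidney profile) and miR-29c-5p in kidney (0.0074 with tails counted, 0.37 with the replicate block, 0.43 without it on the same profiles, and -1.16 to 0.41 with a profile left out, above 0 without the second kidney, second large intestine, liver or first small intestine profile). Except for the scaling, the cause was not tested.

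The miR-29c start kept its call without any 1 profile (gap ratio 6.42 to 8.99) and lost it with tails of at most 1 base (1.17). In the 8 numbered profiles the gap ratio was 9.02, without a call (exact permutation p = 0.00952, the smallest that 105 arrangements can give). A single measure at that p cannot pass the adjustment over 19 measures, so this setting cannot decide whether the call holds. No ratio of members or arms passed under any alternative. Of the 9 most similar miRNAs, 3 remained with Spearman's rho, 2 with TMM scaling and 4 to 8 with a profile left out, fewest without lung. The share of mml-mir-29b-2 among the 5p reads of the miR-29b precursors, 86.2%, was 38.5% with ends within 1 base and 89.7% with tails counted, alternatives chosen after seeing the data. Counts of 5p reads limit what the arms can show.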
